A study of Mus musculus with 3 samples.

Results

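Semaphorins and their receptors were examined as 10 genes: the transmembrane semaphorins Sema6d, Sema4a, Sema4b, Sema4c and Sema4d, the membrane-anchored Sema7a, the co-receptor Nrp1 (neuropilin 1) and the plexin receptors Plxna1, Plxnb2 and Plxnd1. They were taken by gene symbol from the 18193 genes that had a probe set annotated to a single symbol, and all 22 such probe sets of the 10 genes were read on every array. The group was chosen by the measured difference of Sema6d between Rptor-null and wild-type arrays, which was among the largest increases in these data. The differences of all 10 genes in that comparison are therefore given as a description, with no test.

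RNA of follicular regulatory T (Tfr) cells was hybridised to 3 Affymetrix arrays with 45101 probe sets each. Tfr cells express Foxp3, live in B cell follicles and hold back germinal centre responses. They were sorted from the spleen of C57BL/6 mice, 8 days after the animals had been immunized with ovalbumin (OVA), by staining for CD4, CD44, GITR, CD25 and CXCR5 after lineage depletion. The wild-type (WT) group was 1 array of RNA pooled from 4 mice. The Rptor-null group was 2 arrays, each of a separate pool of 8 mice with CD4-Cre and floxed Rptor (Rptor fl/fl), which encodes raptor, the defining subunit of the growth kinase complex mTORC1. CD4-Cre acts in the whole T cell lineage and not in Tfr cells alone, and the ages and sexes of the mice were not stated in the labels used here. The arrays compare Tfr cells with and without raptor in the T cell lineage. The single WT array gives no replicate error; a Rptor-null mean is printed with its SD (n = 2).

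Semaphorins are secreted, membrane-spanning or membrane-anchored ligands that share the sema domain and signal through plexins, large receptors whose cytoplasmic part acts on small GTPases and thereby on adhesion and the cytoskeleton. Neuropilins are co-receptors with short cytoplasmic tails; in mice, neuropilin 1 is found on many regulatory T cells, where Sema4A on neighbouring cells is a known ligand. Plexin-A1 is a receptor for Sema6D, which it can bind together with TREM2 and its adaptor DAP12 in dendritic cells and osteoclasts; plexin-B2 binds Sema4C and Sema4D, and plexin-D1 binds Sema3E and Sema4A.

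Of the 10 genes, 3 had their brightest probe set higher in both Rptor-null arrays than in WT (Sema6d, Plxnb2 and Plxna1), 4 had it lower in both (Nrp1, Sema4b, Sema4d and Plxnd1) and 3 had WT between the Rptor-null arrays (Sema4a, Sema4c and Sema7a). Over all 12721 genes that passed the filter on low values, 32.8% were higher and 48.7% lower in both arrays. The largest differences were those of Sema6d, at 3.05 times the WT level, Plxnb2 at 1.43 times, Plxna1 at 1.34 times and Nrp1, 1.50-fold below WT; folds here and below are on the scale of log2(intensity + 16), which understates the change of dim probe sets. At least 2-fold differences in both arrays were seen for 1 of the 10 as higher (Sema6d) and for 0 as lower, beside 0.393% and 0.597% of all genes. Of their 19 probe sets above the filter, 6 were higher and 7 lower in both arrays, beside 32.7% and 47.1% of all such probe sets. The median log2 difference of the 10 genes was 0.012, beside -0.060 over all genes. The fit across all genes with limma, which serves below for genes outside the group, called 3.93% of all genes higher and 11.1% lower at a Benjamini-Hochberg adjusted p below 0.05, and after quantile normalization 4.24% and 6.02%, so that the share of calls that were higher went from 26.2% to 41.3%. The counts of the 10 genes come from the contrast that chose them and are not a result.

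**Figure D1:**
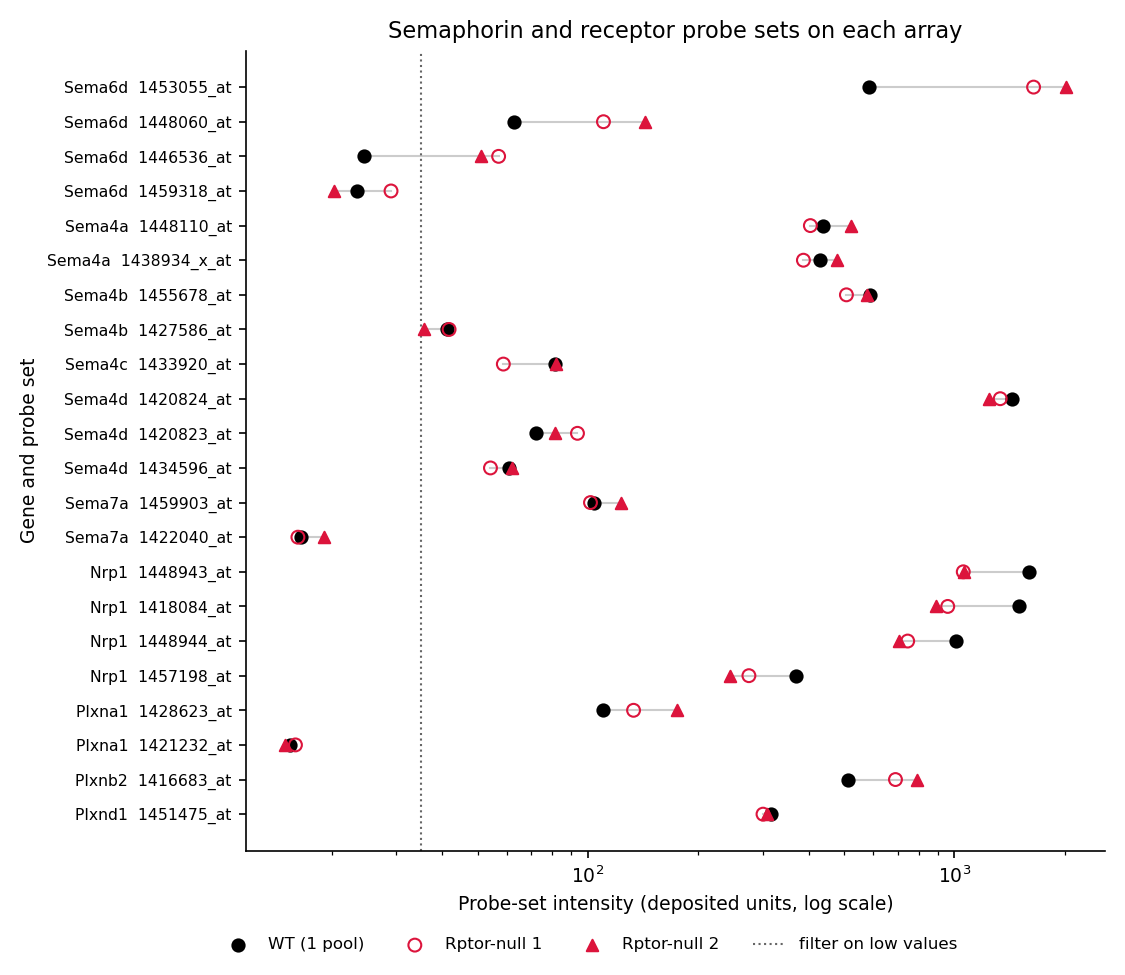
Intensity of each of the 22 probe sets of the 10 genes (x axis, deposited units, log scale; y axis, gene and probe set) on the WT array (black) and the Rptor-null arrays (open circle, 1; triangle, 2); the dotted line is the filter on low values at 35.0. For Sema6d 3 probe sets lie to the right of WT in both Rptor-null arrays, and for Nrp1 all 4 lie to the left.

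The libraries differed beyond these genes. Markers of the sorted cells were present on every array (Foxp3 read 752, 587 and 423 on WT and the Rptor-null arrays; Cxcr5 read 713, 374 and 392), but so were markers of other cells, among them the macrophage receptor gene Csf1r (7911, 12569 and 14904) and the neutrophil gene S100a8 (7644, 8161 and 8193). S100a8 was above WT in both Rptor-null arrays, but 6 of 8 neutrophil markers were below WT in both, beside 48.7% of all genes. The 8 had a median log2 difference of -0.20. Of these, 0 passed limma's adjusted test and 2 had an unadjusted p below 0.05. All 10 measured regulatory T cell markers and all 10 T cell identity genes were lower in both Rptor-null arrays, beside 48.7% of all genes. Their median log2 differences were -0.74 and -0.61. With limma 6 in each list passed as lower, beside 11.1% of all genes. Of their defining genes Tnfrsf18 passed (limma adjusted p = 0.00185), while Foxp3 (0.0799), Il2ra (0.102), Cd3e (0.14) and Cd4 (0.19) did not. By contrast, 12 of 14 macrophage and 8 of 9 basophil markers were higher in both, beside 32.8% of all genes. Their medians were 0.56 and 0.90. With limma 7 and 6 passed as higher, Csf1r and Adgre1 among the 7, beside 3.93% of all genes. The summed intensity of the macrophage list was 36615 in WT and 49722 and 56308 in Rptor-null, and that of the basophil list 1501, 2791 and 3337. The ratio of 3' to 5' signal for Gapdh was 1.11, 1.94 and 2.58. Rptor itself read 365, 353 and 412 on a probe set whose place relative to the deletion is unknown, so that the value checks nothing. In sorted pools, fewer cells of a type and less RNA per cell cannot be told apart.

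Sema6d, a transmembrane semaphorin of class 6, was at 585 in WT and at 1645 and 2013 in Rptor-null on its brightest probe set (1453055_at), a mean of 1829 ± 260.3. Both Rptor-null arrays were above WT by far more than they differed from each other: the log2 differences from WT were 1.47 and 1.75, and the gap between the Rptor-null arrays was 0.29, beside a median gap of 0.117 over all genes. Its mean log2 difference of 1.61 ranked 3 from the top among 12721 genes, while the 2544 genes in its level bin, the brightest of 5 equal bins, had a median of -0.12. A second probe set (1448060_at) read 62.8, 110 and 143, and another (1446536_at) read 24.4, 57.1 and 51.1, with log2 differences of 0.85 and 0.79. These 3 passed the filter, the dimmest of them through its Rptor-null values, since its WT value was below 35.0. The last (1459318_at) was below the filter and read 23.4, 29.0 and 20.3, with WT between the Rptor-null arrays. With the mean of the 3 kept probe sets in place of the brightest, the log2 difference was 1.08.

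The 250 bases before the first of the 2 RefSeq starts of Sema6d, on the plus strand at chr2:124089719-124089968 (GRCm38.p6), are shown with those before the start of Nrp1, on the plus strand at chr8:128358823-128359072, because these genes had the largest differences above and below WT. Capitals mark CACGTG, the E-box bound by MYC and MITF family factors, which reads the same on both strands.
Sema6d: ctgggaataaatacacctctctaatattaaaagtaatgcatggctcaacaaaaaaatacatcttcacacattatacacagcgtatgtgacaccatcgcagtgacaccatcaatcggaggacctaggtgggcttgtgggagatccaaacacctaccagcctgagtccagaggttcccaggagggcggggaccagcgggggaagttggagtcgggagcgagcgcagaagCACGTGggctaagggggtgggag
Nrp1: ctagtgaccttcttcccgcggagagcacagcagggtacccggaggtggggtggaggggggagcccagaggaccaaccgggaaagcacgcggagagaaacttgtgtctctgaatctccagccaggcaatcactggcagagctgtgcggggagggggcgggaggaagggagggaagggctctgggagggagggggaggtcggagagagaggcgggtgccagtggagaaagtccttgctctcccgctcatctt
The E-box stands in this Sema6d window, in neither the Nrp1 window nor the window of the second Sema6d start, and in 1 of the 2 windows of Sema4b. It was in 2 of the 18 windows held for 9 of the 10 genes (not Plxna1), beside 6.02% of 32851 windows of the same length over all genes. The FOXO motif GTAAACA, searched on both strands, was in 0 of the 18 windows and in 3.17% of all. The windows of the group were richer in G and C, with a median of 63.8% beside 52.4% over all windows; the Sema6d windows held 52.4% and 45.2% and the Nrp1 window 64.4%. A match describes these letters only.

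The 5 genes whose pair of differences from WT lay nearest to that of Sema6d, by Euclidean distance over the 2 Rptor-null arrays, were Csf2rb2, Adamdec1, Apobec1, Ms4a2 and Slc45a3. The distances ran from 0.076 for Csf2rb2, an interleukin 3 receptor subunit, to 0.21 for Slc45a3. Adamdec1, a metalloprotease-like protein of macrophages and dendritic cells, was at 556 in WT and at 1469 and 1853 in Rptor-null. Ms4a2, a subunit of the IgE receptor of basophils and mast cells, read 119, 381 and 396. Csf2rb2 and Ms4a2 were also in the basophil list. Of its 9 measured genes 6, these 2 among them, passed limma's adjusted test as higher, beside 3.93% of all genes. The defining basophil gene Mcpt8 read 362, 423 and 559 and did not pass (limma adjusted p = 0.163). Il4, also in the list, was below WT in both Rptor-null arrays. All these differences share the WT array, and the part of macrophage or basophil RNA in the Sema6d level was not tested.

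The class 4 semaphorins differed little from WT. Sema4a, a ligand of neuropilin 1 and plexin-D1, read 437, 405 and 523 (WT, then the Rptor-null arrays, here and below) on its brightest probe set, and 430, 387 and 478 on the other. WT lay between the Rptor-null arrays on both, and the gap between those arrays (0.36 on the log2 scale) was larger than the mean difference (0.072). Sema4c, a ligand of plexin-B2, read 81.5, 58.8 and 81.7 on its only probe set. Here the second Rptor-null array stood at the WT level and the first below it, again with a gap (0.38) larger than the mean difference (-0.19).

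Sema4b read 590, 507 and 578 on its brightest probe set, with WT highest, and 41.3, 41.8 and 35.8 on a dimmer one, with WT between. Its log2 difference of -0.12 was smaller than the gap of 0.18 between the Rptor-null arrays. Sema4d (CD100), which binds plexin-B1 and plexin-B2 and, on B cells, CD72, read 1437, 1334 and 1246 on its brightest probe set. WT was highest there, by a log2 difference of -0.16 against a gap of 0.097. The other probe sets of Sema4d did not repeat this: 1 read 72.2, 93.7 and 81.6, with WT lowest, and 1 read 60.8, 54.2 and 62.1, with WT between. The mean of the 3 probe sets put Sema4d at 0.0077, on the other side of WT.

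Sema7a, which is anchored to the membrane by a lipid and binds an integrin and plexin-C1, read 104, 102 and 123. The first Rptor-null array was at the WT level and the second above it, for a log2 difference of 0.098 and a gap of 0.25. Its other probe set was below the filter at 16.5, 16.2 and 19.1. For Sema4a, Sema4b, Sema4c and Sema7a the difference from WT was thus within the spread between the Rptor-null pools.

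Nrp1 read 1596, 1057 and 1064 on its brightest probe set (1448943_at). Both Rptor-null arrays were below WT, with log2 differences of -0.59 and -0.58 and a gap between them of 0.0091. The other probe sets read 1497, 959 and 889 (1418084_at), 1009, 746 and 708 (1448944_at), and 370, 275 and 244 (1457198_at). WT was the highest array on all 4, with log2 differences between -0.47 and -0.69. The brightest bin, which also holds Nrp1, had a median of -0.12, regulatory T cell markers one of -0.74 and T cell identity genes one of -0.61 on the same arrays. The part of a smaller share of T cell RNA in the lower Nrp1 signal was not tested.

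**Figure D2:**
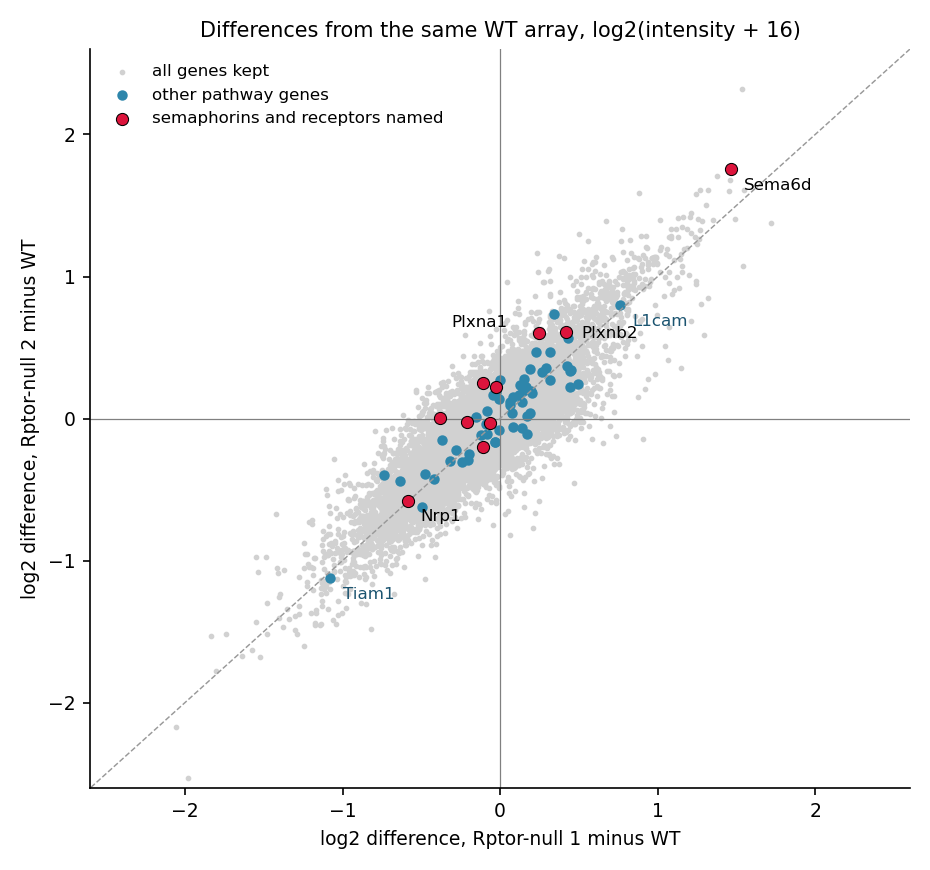
log2 difference of each gene from WT in the first (x axis) and the second (y axis) Rptor-null array, for all genes kept (grey), other pathway genes (blue) and the 10 semaphorins and receptors (red); the dashed line marks equal values, and 1 gene lies outside the plotted range. Sema6d stands at 1.47 and 1.75, Nrp1 at -0.59 and -0.58, and both axes share the WT array.

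Among the plexins, Plxnb2 read 512, 691 and 790 on its only probe set. Both Rptor-null arrays were above WT, with log2 differences of 0.42 and 0.61 and a gap of 0.19; the 2544 genes of its level bin had a median of -0.16. Plxna1, a receptor for Sema6D, read 110, 133 and 175. WT was the lowest array, but the Rptor-null arrays were 0.35 apart on the log2 scale, against a mean difference of 0.42. A second Plxna1 probe set was below the filter at 15.3, 15.9 and 15.0. Plxnd1 read 315, 300.5 and 309, a log2 difference of -0.048 that changed sign with either other scaling (0.051 by quantile normalization, 0.0056 by median centring).

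The higher Plxnb2 and Plxna1 values stood beside the higher macrophage and basophil markers and higher dendritic cell markers. Of 8 dendritic cell markers above the filter, 7 were above WT in both Rptor-null arrays (median 0.33), beside 32.8% of all genes. With Xcr1, which was below the filter, their summed intensity was 7628 in WT and 9560 and 10877 in Rptor-null. Plasmacytoid dendritic cell markers were above WT in both arrays in 6 of 9 cases (median 0.24), beside 32.8% of all genes. With limma 2 of the 9 passed as lower (beside 11.1% of all genes) and 0 as higher. Their defining gene Siglech read only 57.3, 75.8 and 69.6. Endothelial cells, in which Plxnd1 and Nrp1 are known to act, had their defining gene Cdh5 below the filter on the array mean, at 26.7, 22.8 and 31.7. Of 12 endothelial and stromal markers 5 were above the filter, with a median log2 difference of 0.16. The summed intensity of all 12, with those below the filter, was 643 in WT and 719 and 666 in Rptor-null. Among the 5, Kdr read 112, 159 and 146, Pecam1 193, 169 and 147, and Eng 114, 144 and 116. These genes were named after their values were seen and did not all lie on 1 side of WT. With limma 0 of the 5 passed the adjusted test and 1 (Kdr) had an unadjusted p below 0.05. The part of these cells in the plexin levels was not tested. Over the 10 genes, the difference from WT was larger than the gap between the Rptor-null arrays for 6 (Sema6d, Nrp1, Plxnb2, Plxna1, Sema4d and Plxnd1), as it was for 66.1% of all genes.

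The rest of the pathway was read from 4 lists of 74 genes, of which 72 had a probe set with a single symbol and 56 passed the filter. With limma, adjusted by the Benjamini-Hochberg method over all genes, 4 of the 56 were higher in the Rptor-null arrays, 5 were lower and 47 did not pass, beside 3.93% and 11.1% of all genes. Their median log2 difference was 0.085. Among 14 other semaphorins only 6 passed the filter, and 0 passed limma's test, nor did any have an unadjusted p below 0.05. Sema6a, of the same class as Sema6d, read 54.6, 66.8 and 81.5 on its brightest probe set (limma adjusted p = 0.223). Its other kept probe set read 36.6, 35.4 and 36.8, with WT between the Rptor-null arrays. Sema3b read 45.4, 40.3 and 40.7 (limma adjusted p = 0.644). The secreted class 3 ligands Sema3a, Sema3c, Sema3d, Sema3e and Sema3g were below the filter. Sema3f, also of class 3, was above it at 993, 989 and 1094, with WT between the Rptor-null arrays. The Sema3f probe set is of a type that can match several transcripts, so this level is uncertain.

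Of the other plexins and neuropilin 2, 7 of 7 were measured. Plxnc1, the plexin that binds Sema7A, fell from 570 in WT to 361 and 415 in the Rptor-null arrays, a mean of 388 ± 37.8. WT was above both, with a log2 difference of -0.54 ± 0.14 (SE; limma adjusted p = 0.0385). Its 3 kept probe sets lay between -0.42 and -0.56. The call was lost after quantile normalization, without a variance trend and when every probe set was tested on its own, with adjusted p up to 0.102. The other 6 did not pass. The 5 plexins among them, all of the A or B class, read above WT in both Rptor-null arrays, by 0.14 to 0.40 (log2). Over all genes 32.8% were higher in both arrays. Plxna2, Plxna3 and Plxna4 were dim, at 49.8, 81.5 and 81.3 in WT. Of the 5 level bins, the dimmest had a median log2 difference of 0.078 and the brightest one of -0.12.

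Among 14 measured binding proteins, co-receptors and neuropilin ligands, 2 passed limma's test as higher and 1 as lower, beside 3.93% and 11.1% of all genes. L1cam, an adhesion molecule that forms a complex with neuropilin 1 in neurons, rose from 351 in WT to 607 and 622 in the Rptor-null arrays, both well above WT and close to each other. The log2 difference was 0.78 ± 0.12 (SE; limma adjusted p = 0.0079), or 1.72-fold. Tyrobp, which encodes the adaptor DAP12, rose from 8243 to 11096 and 12200.4, with a log2 difference of 0.50 ± 0.087 (adjusted p = 0.0122); it is also a gene of macrophages and NK cells, and its call was lost without a variance trend. Itgb1, the beta subunit of the integrin bound by Sema7A, fell from 1333 to 991 and 990.1, a log2 difference of -0.42 ± 0.10 (adjusted p = 0.0311), a call lost in 4 of 10 alternative fits. Of 2 genes of this list chosen after their values were seen, Trem2, the partner of DAP12, read 52.4, 59.5 and 58.1 (adjusted p = 0.63), and Cd72, the B cell binding partner of Sema4D, read 258, 270.1 and 277 (adjusted p = 0.747).

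Downstream of plexins, 2 of 29 measured genes passed limma's test as higher and 3 as lower, beside 3.93% and 11.1% of all genes. Tiam1, an exchange factor that activates Rac, fell from 1495 in WT to 699.5 and 678 in the Rptor-null arrays, which were close to each other and both far below WT. The log2 difference was -1.10 ± 0.11 (SE; limma adjusted p = 0.00344), or 2.15-fold lower. T cell identity genes and follicular T cell markers (closing section) had medians of -0.61 and -1.11 on the same arrays. The part of less T cell RNA in the Tiam1 level was not tested. Rac1, the GTPase Tiam1 acts on, fell from 4456 to 3201 and 3400.0 (-0.43, limma adjusted p = 0.0196) on its brightest probe set. Another kept probe set had a log2 difference of 0.10. The Rac1 call was lost with the mean of both and without a variance trend. Cdk5, a kinase that phosphorylates collapsin response mediators, fell from 271 to 188 and 170.5 (-0.56, limma adjusted p = 0.0486) on its brightest probe set. Its other kept probe sets had log2 differences of 0.013 and -0.084, and the mean of probe sets put Cdk5 at -0.21. The Cdk5 call was lost in 5 of 10 alternative fits.

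Rap1b, a Ras-type GTPase on which the plexin GAP domain acts, rose from 10585 to 12940 and 13531 (0.32, limma adjusted p = 0.0327). Of its 3 kept probe sets 1 lay on the other side of WT (-0.092). The call was lost with their mean, with every probe set tested on its own and without a variance trend. Mical1, an oxidoreductase of actin downstream of plexins, rose from 767 to 1035 and 996 (0.40, adjusted p = 0.0444) on a probe set of a type that can match several transcripts. Its other probe set read 589, 555 and 575, with WT highest, so that the direction turned to -0.059 without such probe sets. Mical1 passed in 6 of 11 fits, the reported one among them. Of the 9 pathway genes that passed, only L1cam and Tiam1 passed in all 11 fits, at limma adjusted p values up to 0.0293 and 0.0237. Each of these had only 1 kept probe set, so the mean of probe sets could not differ from the brightest. All 11 fits share the single WT array. The part of a changed share of T cell or other RNA in the 9 calls was not tested.

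**Figure D3:**
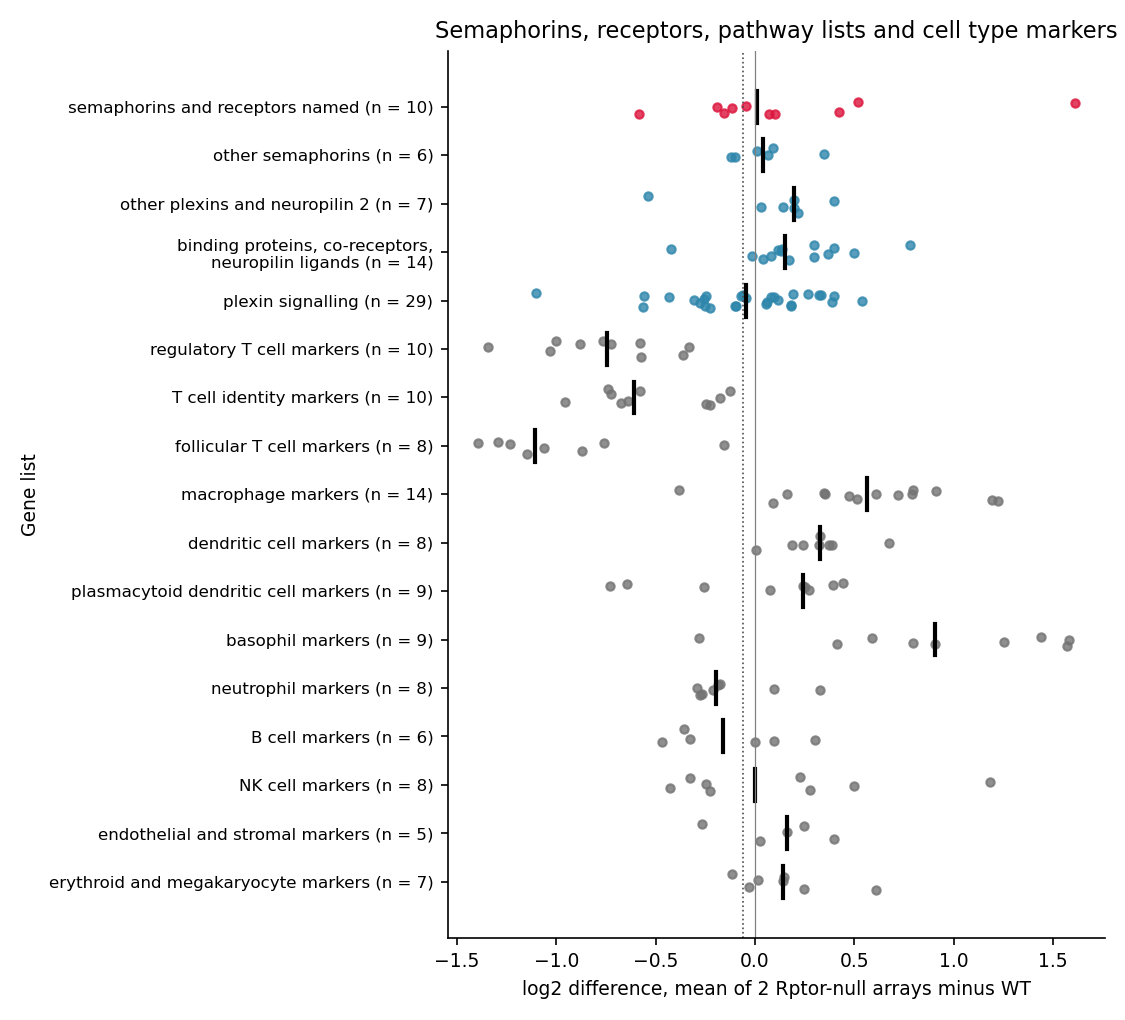
log2 difference from WT (x axis, mean of the 2 Rptor-null arrays) of each gene kept in the 10 named semaphorins and receptors (red), the 4 pathway lists (blue) and 12 cell type marker lists (grey); black bars are list medians and the dotted line is the median of all genes, -0.060. The medians of the named genes and of plexin signalling (-0.044; 0.024 by quantile normalization and 0.0093 by median centring) lie near the dotted line, while those of regulatory T cell (-0.74) and basophil markers (0.90) lie on opposite sides of it.

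**Figure D4:**
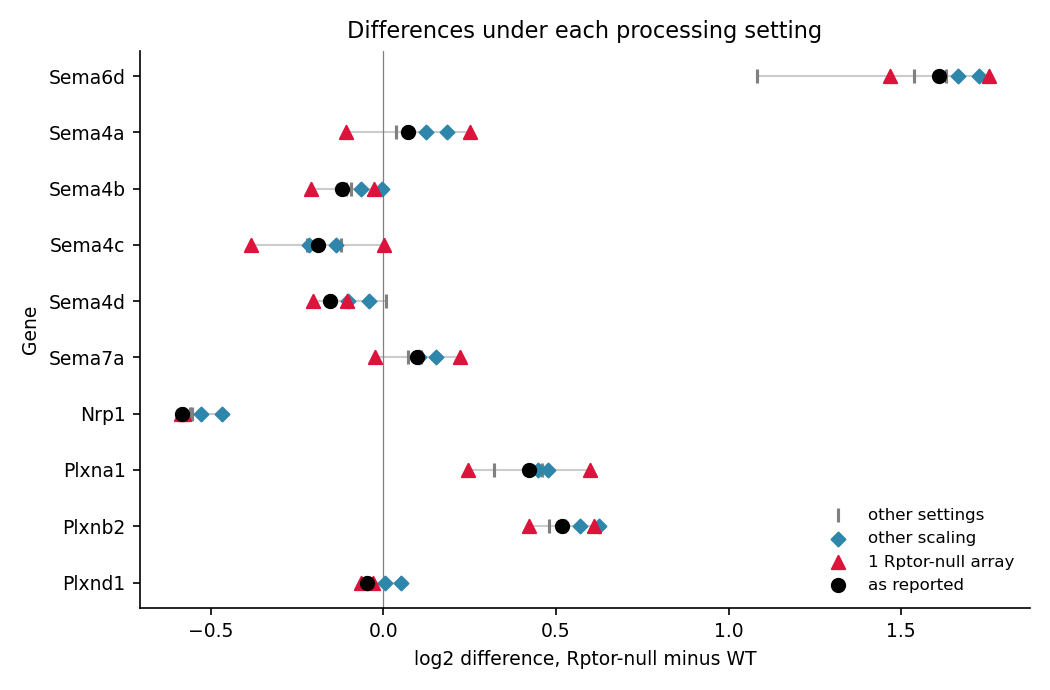
log2 difference from WT (x axis) of each of the 10 genes (y axis) as reported (black), after another scaling (blue diamonds), with 1 Rptor-null array at a time (red triangles) and under the other settings (grey ticks); grey lines join the lowest and highest value. Sema6d, Plxnb2 and Plxna1 stay above 0 and Nrp1 and Sema4b below 0 under all of them, while the other 5 genes reach the opposite side at least once.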

How the data were processed

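Values were the deposited probe-set intensities, on a linear scale that the authors had scaled or normalized; the submitters' processing notes name MAS5, and the scaling target and summary method are not given in the sources used here. Per the labels' protocols, biotinylated cRNA was made from 100 ng of TRIzol-extracted RNA. For arrays, their number limits the precision. The median intensity was 52.8 for WT and 55.0 and 54.9 for Rptor-null.

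Of 45101 probe sets, 34945 named 1 gene in the platform annotation, 932 several, 9160 were unnamed here and 64 were controls. Intensities were converted to log2(intensity + 16). A filter at the 40th percentile of level, the average of both group means, removed probe sets up to 35.0, and the brightest probe set stood for a gene, giving 12721 genes. The model was run with limma 3.58.1 under R 4.3.3 (lmFit and eBayes with trend, two-sided, Benjamini-Hochberg adjustment over all genes, threshold 0.05) on 1 residual and 6.39 prior degrees of freedom. This takes the WT array to have the spread of the Rptor-null arrays.

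The members, lists and tests were chosen with earlier results of these data known. Named beside the members were Rptor, defining cell markers, pathway genes past the test (at most 4 per list and direction; where none passed, the 2 with the largest difference) and the 5 genes nearest to Sema6d. The follicular T, B, NK, and erythroid and megakaryocyte marker lists stand in the closing section, the others in the report. A planned count of members past the test is not given, since this contrast chose them. Promoter windows are from RefSeq (GRCm38.p6), with 9 of 10 genes matched. A planned comparison of protein sequences was not run.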

Additional observations from a re-analysis of the deposited data

How the results depend on the processing

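Of 12 alternatives, 10 gave a test, and each of the runs without 1 Rptor-null array gave values with no test. The log2 differences of Sema6d and Nrp1 ranged from 1.08 to 1.75 and from -0.59 to -0.47 over these 12, as a description of the contrast that chose them. Over all genes, calls went from 500 higher and 1411 lower to 877 higher with median centring, 766 lower after quantile normalization, 318 and 870 when every probe set was tested on its own, and 301 and 769 without a variance trend. Pathway calls went from 4 higher and 5 lower to 2 lower after quantile normalization, 2 and 2 with the mean of probe sets, 2 and 2 with every probe set tested, and 1 and 1 without a variance trend. The Mical1 difference turned to -0.059 once probe sets that may match several transcripts were left out, since its other probe set then stood for the gene. The median of the 10 genes ranged from -0.086 to 0.11. Quantile normalization moved the median of all genes from -0.060 to -0.012. No paired analysis was possible because WT had 1 array and no replicate number.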

Other observations

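Other cell types were read from the same arrays. Follicular T cell markers were lower in both Rptor-null arrays in 8 of 8 cases (median log2 difference -1.11), beside 48.7% of all genes. With limma 7 of them passed as lower, beside 11.1% of all genes. B cell markers were below WT in both arrays in 3 of 6 cases (median -0.16), beside 48.7% of all genes. With limma 0 passed the adjusted test and 2 had an unadjusted p below 0.05. NK cell markers were above WT in both arrays in 4 of 8 cases and below in 4, beside 32.8% and 48.7% of all genes. Their median log2 difference was -0.0013, or 0.063 by quantile normalization and 0.052 by median centring. With limma 6 of the 8 had an unadjusted p below 0.05. In the adjusted test 2 passed as higher (beside 3.93% of all genes) and 0 as lower. The 2 were Eomes and Klra8, named after their values were seen. The defining gene Ncr1 went the other way, at 398 in WT and 299 and 285 in Rptor-null (limma adjusted p = 0.0724). Erythroid and megakaryocyte markers had 7 of 10 genes above the filter, with a median of 0.14. Of these, 0 passed limma's adjusted test and 1 had an unadjusted p below 0.05.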
